A study of Homo sapiens with 6 samples.

Results

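The protein-coding genes of the mitochondrial ribosome were examined in HepaRG, a human line from a liver cancer, named in the labels as one of hepatic stem cells. All genes whose symbol is MRPL or MRPS followed by a number and, in some, a letter A, B or C were taken, which gave 78 of 16659 measured genes. Pseudogenes, readthrough genes and antisense genes were not included, and 4 further rows with such symbols (MRPL20-AS1, MRPL45P2, MRPS31P5 and MRPS31P4) stayed out. RNA of 3 libraries of wild-type cells, the study's control, was compared with RNA of 3 libraries labelled as a functional knockout of PXR, called the knockout below. PXR, the pregnane X receptor encoded by NR1I2, is a nuclear receptor that senses drugs and bile acids and switches on genes of drug metabolism. Cells of both groups were untreated and came from the same line. The labels do not give the number of clones behind the knockout, nor whether libraries came from separate cultures. All p-values therefore measure the spread between these libraries, which may be technical.

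Mitochondria carry their own ribosome, which translates the few proteins encoded by mitochondrial DNA, all of them subunits of the respiratory chain and of ATP synthase. Its rRNAs are transcribed inside the organelle, whereas its proteins are encoded in the nucleus, made in the cytosol and imported. Some of these proteins have homologues in bacterial ribosomes (named uS, bS, uL or bL with the suffix m), and others are specific to mitochondria (named mS or mL). Of the 78 genes, 51 encode proteins of the large subunit, among them MRPS30 (mL65) and MRPS18A (mL66) despite their names, and 26 encode proteins of the small subunit. The remaining gene, MRPS36, is now called KGD4 and encodes a part of the 2-oxoglutarate dehydrogenase complex rather than of the ribosome.

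Levels are given as scaled CPM, CPM values with a library-wide scaling factor that the authors applied. The estimated depth lay between 11358769 and 20946043 reads in wild type and between 28154593 and 33392574 reads in the knockout, so each knockout library was deeper than each wild-type library. The lowest estimated read number of any of the 78 genes in any library was 133, for MRPL22. NR1I2 was at 8.24, 7.04 and 7.60 scaled CPM in wild type and at 13.1, 13.4 and 14.3 in the knockout, a higher RNA level in each library labelled as knockout. The total over a gene cannot tell a working transcript from a disabled one and is no check of the labels. All 7 hepatocyte markers in the table (of 8 listed) were higher in the knockout, with a summed level of 2212 to 2285 scaled CPM in wild type and 42706 to 43900 in the knockout. Bile duct markers (4 of 6 in the table) summed to 489 to 515 against 373 to 399, mesenchymal markers (5 of 6) to 78.4 to 83.1 against 398 to 414, and leukocyte markers (3 of 6) to 13.6 to 16.8 against 22.7 to 24.1. Within these lists genes moved both ways: the bile duct markers SPP1 (log2 change -3.12) and KRT7 (-0.58) were lower and KRT19 (1.58) and SOX9 (0.55) higher. Of the mesenchymal markers 4 were higher and PDGFRB (-1.45) lower, and of the leukocyte markers 2 were higher and CD14 (-0.31) lower. No marker was at 0 in all libraries. The part of these differences in the results for the ribosomal protein genes was not tested, and in RNA of whole cultures fewer cells of a type and less RNA per cell cannot be told apart.

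Promoter sequences are shown for 6 of the genes, because a short sequence near the transcription start was shared by the promoters of the genes that fell most, as described further on. The letters are CCGGAAG or, on the other strand, CTTCCGG, which ETS-family factors such as GABP can bind. Each stretch holds 170 bases, from 150 before the RefSeq start of the gene to 20 after it, read 5′ to 3′ on the gene's strand from GRCh38.p14, with these letters in capitals. The 6 genes were chosen after their values were seen. MRPS21 (chr1:150293711-150293880, plus strand), MRPL33 (chr2:27771569-27771738, plus strand) and MRPL43 (chr10:100987478-100987647, minus strand) are among the 10 genes that fell most, and all carry the letters.
MRPS21: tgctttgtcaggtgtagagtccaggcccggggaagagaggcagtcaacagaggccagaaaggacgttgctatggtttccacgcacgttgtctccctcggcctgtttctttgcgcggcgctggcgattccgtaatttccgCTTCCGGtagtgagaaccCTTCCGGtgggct
MRPL33: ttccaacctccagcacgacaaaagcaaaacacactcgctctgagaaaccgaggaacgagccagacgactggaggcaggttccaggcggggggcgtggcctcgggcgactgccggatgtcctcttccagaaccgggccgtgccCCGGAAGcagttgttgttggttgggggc
MRPL43: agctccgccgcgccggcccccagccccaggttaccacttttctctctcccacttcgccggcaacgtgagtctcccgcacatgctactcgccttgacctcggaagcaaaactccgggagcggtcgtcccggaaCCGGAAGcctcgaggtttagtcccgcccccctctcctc
MRPL27 (chr17:50373165-50373334, minus strand) rose and carries the letters in 2 copies, whereas MRPL49 (chr11:65122033-65122202, plus strand) and MRPL44 (chr2:223957313-223957482, plus strand) rose and have no copy in the stretch.
MRPL27: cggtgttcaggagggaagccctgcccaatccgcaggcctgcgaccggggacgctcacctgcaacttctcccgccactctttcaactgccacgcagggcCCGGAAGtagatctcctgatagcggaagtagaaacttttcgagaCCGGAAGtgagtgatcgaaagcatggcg
MRPL49: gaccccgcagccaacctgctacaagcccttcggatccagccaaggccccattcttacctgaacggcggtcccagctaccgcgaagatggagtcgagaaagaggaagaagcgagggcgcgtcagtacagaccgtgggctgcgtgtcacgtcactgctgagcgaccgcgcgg
MRPL44: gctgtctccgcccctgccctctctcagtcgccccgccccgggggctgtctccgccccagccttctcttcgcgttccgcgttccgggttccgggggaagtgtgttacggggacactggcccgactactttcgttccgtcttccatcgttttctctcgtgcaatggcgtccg

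All 78 genes passed the filter on low values (above 1 scaled CPM in at least 3 of the 6 libraries). In the knockout 28 were higher, 32 were lower and 18 did not pass the threshold (limma, adjusted p under 0.05, adjusted over all 16219 genes tested). The share past the threshold was 76.9%, against a background of 79.9% of all genes tested, with 40.3% higher and 39.6% lower. Changes were small: the median log2 change (knockout minus wild type) was -0.03, against 0.01 over all genes tested. The median size regardless of sign was 0.30, against 0.47 over all genes and 0.40 over the 8429 genes in the same range of levels. Only MRPS21 changed by 2-fold or more, 1 of 78, whereas 22.7% of all genes passed the threshold with such a change. The libraries of the groups did not overlap for 63 of the 78 genes, or 80.8%, and the same share of all genes, 80.8%, behaved so. The balance of rises and falls depended on the scaling: with all columns brought to an equal sum, 19 rose and 42 fell. That rescaling moved the median of all genes to -0.12 and that of the 78 genes to -0.17.

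MRPS21 fell most. It encodes bS21m, the homologue of bacterial S21 in the small subunit, and lies on chromosome 1 (150293720 to 150308979, plus strand; gene positions are from GENCODE 29 on GRCh38). Its level was 107, 109 and 105 scaled CPM in the wild-type libraries and 37.8, 36.8 and 35.1 in the knockout libraries. Every knockout library was thus far below every wild-type library, and the log2 change was -1.54 ± 0.04 (SE, n = 3 and 3; limma adjusted p = 7.9e-14). MRPS21 has 8 annotated pseudogenes, none of them a row of the table, and reads from such copies could have been shared with it. MRPL40 (chromosome 22, 19431902 to 19436075, plus strand) encodes mL40 of the central protuberance, the crest of the large subunit that faces the small one. It had 39.4, 39.2 and 37.8 scaled CPM in wild type and 18.3, 20.5 and 20.5 in the knockout, with no overlap (log2 change -0.96 ± 0.055; limma adjusted p = 8.6e-10). MRPL33 (chromosome 2, 27771717 to 27988087, plus strand) encodes bL33m, a small protein with a bacterial homologue. Its level went from 66.0, 71.5 and 65.7 to 40.9, 39.1 and 39.3 scaled CPM, again without overlap (-0.76 ± 0.042; limma adjusted p = 5.8e-10). MRPL33 shares exon bases on its strand with BABAM2, which the table also measures, so reads of the pair may have been divided between them.

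The next falls were in genes of the large subunit. MRPL52, which encodes the mitochondria-specific mL52, had 31.9, 35.9 and 35.5 scaled CPM in wild type and 21.4, 20.8 and 20.2 in the knockout (log2 change -0.71 ± 0.056). MRPL21, for bL21m, had 57.6, 57.7 and 53.9 against 34.7, 33.6 and 35.9 (-0.69 ± 0.044). In both genes the lowest wild-type library lay well above the highest knockout library. MRPL43, for the mitochondria-specific mL43, had 53.7, 54.2 and 52.4 against 31.9, 34.7 and 33.9 (-0.67 ± 0.043). MRPL51, for mL51, had 60.3, 62.9 and 62.3 against 39.8, 39.9 and 38.4 (-0.65 ± 0.038). Both share exon bases with genes on the opposite strand, MRPL43 with TWNK and SEMA4G and MRPL51 with NCAPD2. The library kit keeps strand, but the strand setting of the counting is not given in the sources used here. MRPL3 encodes uL3m, whose bacterial homologue is among the first proteins to bind the large rRNA. It had 144, 152 and 147 scaled CPM in wild type and 99.8, 95.4 and 97.3 in the knockout (-0.60 ± 0.031). MRPL10 (uL10m) and MRPL47 (uL29m), with changes of -0.57 ± 0.041 and -0.54 ± 0.036, closed the list of the 10 largest falls. In MRPL3, MRPL10 and MRPL47, too, no knockout library reached a wild-type one.

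MRPS24 rose most. It encodes uS3m, whose bacterial homologue S3 lines the entry of the mRNA channel, and lies on chromosome 7 (43866558 to 43869893, minus strand). Its level was 66.7, 72.5 and 66.9 scaled CPM in wild type and 112, 117 and 112 in the knockout. The groups were well apart, with a log2 change of 0.73 ± 0.037 (SE, n = 3 and 3; limma adjusted p = 2.5e-10). MRPL44 (chromosome 2, 223957404 to 223967714, plus strand) encodes mL44, a mitochondria-specific protein with a fold like that of RNase III. It had 26.3, 30.7 and 26.8 scaled CPM in wild type and 43.6, 43.0 and 45.1 in the knockout (0.65 ± 0.057; limma adjusted p = 9.4e-08). MRPL49 (chromosome 11, 65122183 to 65127371, plus strand), for mL49, had 38.9, 40.8 and 42.0 against 61.9, 63.1 and 65.2 (0.64 ± 0.041; limma adjusted p = 2.8e-09). Neither gene's groups overlapped. MRPL49 shares exon bases with FAU and SYVN1 on the opposite strand.

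MRPL27 (chromosome 17, 50367857 to 50373214, minus strand) encodes bL27m, whose bacterial homologue reaches into the peptidyl transferase centre. It had 56.8, 60.2 and 58.4 scaled CPM in wild type and 85.7, 91.2 and 89.6 in the knockout, without overlap (log2 change 0.60 ± 0.037; limma adjusted p = 1.6e-09). MRPL32 encodes bL32m, which is cut by a protease of the inner membrane before it joins the ribosome. Its level went from 39.4, 39.1 and 39.4 to 60.7, 62.1 and 59.4 scaled CPM (0.62 ± 0.037), with wild-type libraries almost alike. MRPL13 (uL13m) had 34.0, 38.7 and 34.7 against 58.5, 53.6 and 55.0 (0.63 ± 0.052). MRPL22 encodes uL22m, whose bacterial homologue lines the tunnel through which the new protein leaves. Its level was 10.96, 14.1 and 12.9 against 18.4, 19.4 and 19.6 (0.59 ± 0.084). MRPS28, for bS1m, had 17.8, 18.7 and 21.2 against 29.8, 28.2 and 26.6 (0.54 ± 0.068). The knockout libraries were the higher ones in each of these genes. MRPL39 (mL39) and MRPL38 (mL38) rose by 0.50 ± 0.059 and 0.48 ± 0.051 and completed the 10 largest rises.

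Of the stalk genes, 3 were lower, 0 were higher and 1 did not pass, and those of the central protuberance changed in both directions. Over all genes tested 79.9% passed, 40.3% higher and 39.6% lower, and neither of these small groups was tested as a group. In the stalk, the arm of the large subunit that recruits translation factors, MRPL10 fell by 0.57 on the log2 scale. MRPL11 (uL11m, at the stalk base) had a change of -0.29 ± 0.066 (limma adjusted p = 0.0011). MRPL12, the bL12m protein at the tip, had a change of -0.19 ± 0.046 (limma adjusted p = 0.0016). MRPL53 (mL53) did not pass the threshold (-0.08 ± 0.057; limma adjusted p = 0.21), and its groups overlapped. Changes in the central protuberance had both signs: MRPL40 fell and MRPL48 fell slightly (-0.17 ± 0.054), whereas MRPL38 rose by 0.48 and MRPL58 by 0.23 ± 0.057. MRPL58, also known as ICT1, is a peptidyl-tRNA hydrolase built into the ribosome, and its rise did not pass with equal column sums. MRPL18 (0.07 ± 0.038; limma adjusted p = 0.13) and MRPL46 (0.12 ± 0.052; limma adjusted p = 0.054) did not pass.

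Human cells have 3 homologues of bacterial S18 in the mitochondrial ribosome, encoded by MRPS18A, MRPS18B and MRPS18C. MRPS18B (mS40) had 79.3, 85.4 and 81.8 scaled CPM in wild type and 90.6, 89.5 and 98.8 in the knockout. Its knockout libraries were all higher, with a log2 change of 0.18 ± 0.042 (limma adjusted p = 0.0014) that did not pass with equal column sums. MRPS18C (bS18m) had 25.2, 27.3 and 29.4 against 26.2, 23.3 and 22.5, so the groups overlapped although the test passed (-0.18 ± 0.069; limma adjusted p = 0.025). MRPS18A (mL66, in the large subunit) had 29.7, 30.0 and 32.3 against 28.96, 31.1 and 27.9, with overlap and no call (-0.06 ± 0.054; limma adjusted p = 0.31).

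The 18 genes that did not pass had log2 changes between -0.08 (MRPL53) and 0.12 (MRPL46). They were MRPL1, MRPL4, MRPL9, MRPL14, MRPL18, MRPL23, MRPL28, MRPL30, MRPL36, MRPL41, MRPL45, MRPL46, MRPL53, MRPS9, MRPS10, MRPS12, MRPS18A and MRPS33. MRPS12, whose bacterial homologue S12 sits at the decoding centre, is an example: 69.1, 66.3 and 66.3 scaled CPM in wild type and 66.5, 69.1 and 70.1 in the knockout. MRPS10 (uS10m) had 52.8, 56.1 and 55.0 against 55.6, 55.2 and 51.5. The libraries of the groups were interleaved in both genes, with changes of 0.03 ± 0.035 and -0.01 ± 0.042. MRPS36, the gene of the dehydrogenase complex, had 39.4, 38.2 and 38.1 against 45.1, 42.2 and 43.5. All its knockout libraries were higher (0.17 ± 0.042), but the call was lost with equal column sums.

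Beyond single genes, large-subunit genes counted 17 higher, 20 lower and 14 not past the threshold, with a median log2 change of -0.04. Small-subunit genes counted 10 higher, 12 lower and 4 not past, with a median of -0.03. The 46 genes with a bacterial homologue had 17 higher and 17 lower (median 0.01), and the 31 mitochondria-specific ones 10 higher and 15 lower (median -0.08). Of all 16219 genes tested, 40.3% were higher and 39.6% lower. With equal column sums the large subunit had 13 higher and 27 lower, the small subunit 6 and 15, the homologues 13 and 24 and the mitochondria-specific genes 6 and 18. All genes tested leaned the same way under that rescaling, with 5358 higher and 7681 lower. Within the small subunit, 7 of the 10 mitochondria-specific genes were lower, 2 were higher and 1 did not pass (median -0.30). MRPS26, MRPS23, MRPS25, MRPS34, MRPS22, MRPS27 and MRPS31 were the lower ones, and MRPS18B and MRPS35 the higher ones. The 16 small-subunit genes with a bacterial homologue had 8 higher and 5 lower (median 0.12). The same rescaling gave 0 higher and 8 lower of 10, and 6 higher and 7 lower of 16, so the sign of the latter median (-0.01) depended on the scaling. The difference between these gene groups was not tested.

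Summed over the 78 genes, the level was 3964 ± 49.3 scaled CPM in wild type and 3732 ± 3.60 in the knockout (mean ± SD, n = 3). Their share of all signal was 0.421% ± 0.0028 in wild type and 0.360% ± 0.0029 in the knockout. The summed level of the large subunit over that of the small subunit was 1.496 ± 0.017 in wild type and 1.558 ± 0.011 in the knockout. None of these sums overlapped between the groups, which 3 libraries against 3 cannot carry below p = 0.10 in an exact permutation test. MRPS21 weighed heavily in the ratio: its mean fell from 107 to 36.6 scaled CPM, while the whole small-subunit sum fell from 1573 to 1442. The higher ratio therefore does not show a shift of the small subunit as a whole, and the ratio without MRPS21 was not computed. MRPS21 is also the gene with 8 annotated pseudogenes. For the cytosolic ribosome, which translates nuclear mRNAs, 82 genes were taken by symbol. They include the like-named RPL10L, RPS27L, RPL26L1, RPL22L1 and RPL7L1 and leave out FAU. Their levels summed to 51997 ± 1013 in wild type and 30142 ± 194 scaled CPM in the knockout. Of these 82 genes 77 were lower, 3 (RPL10L, RPS27L and RPS26) were higher (2 with equal column sums) and 2 did not pass. The median log2 change was -0.85. RPL10L had a mean of 0 in wild type and of only 3.75 scaled CPM in the knockout. The 2 gene families were not tested against each other.

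**Figure D1:**
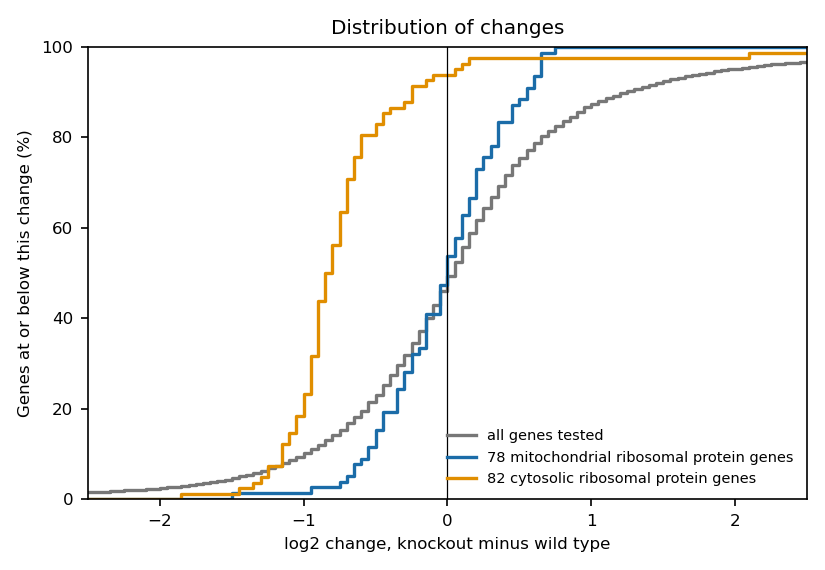
Cumulative share of genes (y axis, percent) by log2 change (knockout minus wild type, x axis) for the 78 mitochondrial ribosomal protein genes, the 82 cytosolic ones and all 16219 genes tested. The mitochondrial curve rises around its median of -0.03, and most of the cytosolic curve lies to the left, around -0.85.

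Levels were compared between genes per kilobase of the longest principal transcript. MRPS24 had the highest mean level, 129 scaled CPM per kb, followed by MRPL33 (104) and MRPL27 (103). The lowest were MRPL22 (5.01), MRPL42 (7.49) and MRPS11 (8.20). These ranks depend on the transcript taken for each gene, which held 518 bases for MRPL33 and 15582 for MRPL42. On a shorter transcript the value of any of the lowest genes would be higher. In wild type MRPL33 stood first (127, 138 and 127 scaled CPM per kb) and MRPS24 second (94.3, 103 and 94.7), although the libraries of MRPL24 (87.7, 96.0 and 92.5) overlapped those of MRPS24. In the knockout MRPS24 stood first (159, 165 and 159), followed by MRPL27 (120, 127 and 125). The levels per kb in the 2 groups correlated over the 78 genes with r = 0.89, as a description over genes that share the same libraries and lengths.

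The chromosomes of the 78 genes differed in their own medians. Over the other genes tested, chromosome 22 had a median log2 change of -0.77 (376 genes), chromosome 7 of 0.43 (812 genes) and chromosome 12 of 0.34 (841 genes). The medians of the remaining numbered chromosomes and X lay between -0.19 (chromosome 21) and 0.16 (chromosome 9). MRPL40, the only one of the 78 genes on chromosome 22, had a change of -0.96, and -0.18 after the chromosome's median was taken out (limma adjusted p = 0.0044). On chromosome 7, the changes without its median were 0.30 for MRPS24, 0.20 for MRPL32, 0.01 for MRPS17 and -0.48 for MRPS33. MRPS17 (uS17m) had passed at 0.44 ± 0.060, with 20.7, 23.02 and 22.4 scaled CPM in wild type and 32.3, 28.8 and 29.2 in the knockout. MRPS33 had not passed (-0.05 ± 0.037), with 62.9, 65.2 and 64.8 against 63.7, 63.1 and 59.5. On chromosome 12, the rises of MRPL42 (0.31 ± 0.036) and MRPS35 (0.09 ± 0.037) turned to -0.02 and -0.25, whereas the fall of MRPL51 grew to -0.98. The genes within 5 Mb of a member did not all follow the median of chromosome 12: their median was -0.10 around MRPL51 (102 genes), -0.20 around MRPS35 (36 genes) and 0.52 around MRPL42 (39 genes).

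The 8 genes on chromosomes 7, 12 and 22 counted 5 higher, 2 lower and 1 not past, or 87.5% past the threshold, beside 79.9% of all genes tested. The 70 genes on other chromosomes counted 23 higher, 30 lower and 17 not past, or 75.7% past. Of all 14182 genes tested on those other chromosomes, 5452 were higher and 5796 lower, or 79.3% past. Outside these 3 chromosomes, the change of a gene and the median of its chromosome correlated with r = -0.06 over 70 genes, given as a description, since genes of 1 chromosome share the median.

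**Figure D2:**
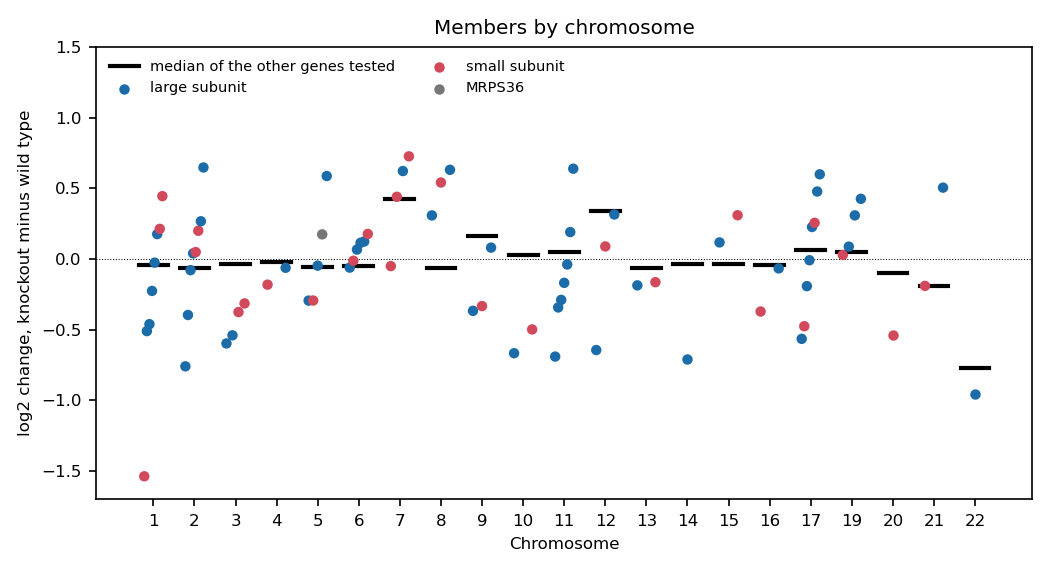
Log2 change (knockout minus wild type, y axis) of the 78 genes by chromosome (x axis), one point per gene, with a bar at the median of the other genes tested on that chromosome. MRPL40 on chromosome 22 lies near the bar at -0.77, and MRPL51 on chromosome 12 lies below a bar at 0.34.

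RefSeq promoters (250 bases before the start to 50 after it, GRCh38.p14) were found for 70 of the 78 genes, all but MRPL2, MRPL10, MRPL13, MRPL15, MRPL21, MRPL23, MRPL35 and MRPS28. The ETS letters CCGGAAG, searched on both strands, were in 29 of the 70, or 41.4%, against 18.3% of the 11465 tested genes with a promoter and 10.3% of all 35116 promoters. The letters AAGATGGC, which YY1 can bind, were in 20 of the 70 (28.6%, against 5.08% of tested genes). No copy of the ETS letters overlapped a copy of the YY1 letters in these genes. The palindromic motif of NRF1 was in 8 (11.4%, against 11.2%), CCAAT in 20 (28.6%, against 37.2%) and TATAAA in 3 (4.29%, against 6.59%). A match describes the letters in this window and does not show that a factor binds there.

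Among the 29 genes with the ETS letters, 17 were lower, 5 higher and 7 not past the threshold, with a median log2 change of -0.18. Among the 41 genes without them, 12 were lower, 19 higher and 10 not past, with a median of 0.09. Of the 10 genes with the largest falls, 8 had a promoter in RefSeq, and all 8 carried the letters, among them MRPS21, MRPL33 and MRPL43 shown above. Of the 10 with the largest rises, 8 had a promoter and 2, MRPL27 and MRPL38, carried them. The same lean was present among the other tested genes: 56.1% of 2067 with the letters were lower and 27.4% higher (median -0.21), against 37.9% lower and 44.3% higher of 9328 without (median 0.05). The pattern is thus not particular to these ribosomal genes, and it was looked for after the values were known and not tested. With equal column sums the counts were 24 lower and 3 higher of 29 with the letters, and 14 lower and 13 higher of 41 without. That rescaling moved the other tested genes down as well. Of the 2067 with the letters 65.6% were then lower and 20.8% higher, and of the 9328 without 45.8% and 36.6%. Among the 20 genes with the YY1 letters, 7 were lower and 7 higher, beside 43.4% lower and 38.1% higher of the other tested genes with them. Among the 8 with the NRF1 motif 2 were lower and 0 higher, beside 43.1% lower and 37.3% higher of the other tested genes with it.

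**Figure D3:**
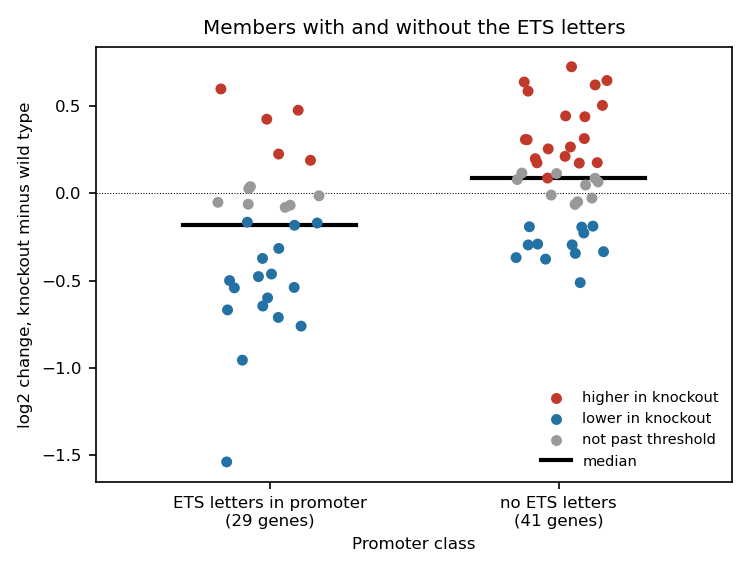
Log2 change (knockout minus wild type) of the 70 mitochondrial ribosomal protein genes with a RefSeq promoter, one point per gene, split by whether the ETS letters occur in the promoter window, with the median of each group. The 29 genes with the letters have a median of -0.18 and the 41 without a median of 0.09, and the 2 groups overlap.

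RNA of the factors named for these letters changed in different directions. GABPA, the DNA-binding subunit of the ETS factor GABP, was at 55.6, 54.3 and 55.3 scaled CPM in wild type and at 45.2, 44.6 and 42.2 in the knockout. Each knockout library was lower (log2 change -0.32 ± 0.040; limma adjusted p = 3.8e-06). YY1 fell from 138 ± 2.73 to 114 ± 2.30 (-0.28 ± 0.030; limma adjusted p = 8.8e-07). NRF1 was at 8.92 ± 0.70 and 11.1 ± 0.40 (0.31 ± 0.083; limma adjusted p = 0.0037), a rise that did not pass with equal column sums (limma adjusted p = 0.064). NRF1 lies on chromosome 7, and its rise is below that chromosome's median change of 0.43. PPARGC1A, a coactivator that raises mitochondrial gene expression, fell from 274 ± 2.90 to 173 ± 1.66 (-0.66 ± 0.025). Its relatives PPRC1 and PPARGC1B moved apart, by -0.41 and 0.52. MYC changed by 0.13 ± 0.045, a rise that was lost with equal column sums (-0.01). In all, 3 of the 9 listed regulators were higher, 4 lower and 2 not past, or 1 higher and 6 lower with equal column sums. The share past the threshold was 77.8%, near the 79.9% of all genes tested. Whether these changes bear on the ribosomal protein genes was not tested.

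The mitochondrial ribosome also holds proteins whose genes have other names. Of 5 such genes, AURKAIP1 (-0.36 ± 0.050), CHCHD1 (-0.27 ± 0.068) and PTCD3 (-0.16 ± 0.033) were lower and 0 were higher. DAP3 (-0.03 ± 0.034) and GADD45GIP1 (0.09 ± 0.051) did not pass. DAP3 passed as lower with equal column sums (-0.16; limma adjusted p = 0.00037) and with quantile normalization (-0.09; limma adjusted p = 0.026). Of 26 assembly factors, which fold, modify or check the ribosome's RNA and proteins, 5 were higher, 15 lower and 6 not past (median -0.23). The share past the threshold was 76.9%, against 79.9% of all genes tested (40.3% higher and 39.6% lower). With equal column sums 5 were higher and 20 lower, and of all 16219 genes tested 5358 were higher and 7681 lower. DHX30, an RNA helicase of mitochondrial RNA granules, fell from 122 ± 3.03 to 51.1 ± 2.12 scaled CPM (-1.25 ± 0.037), the largest fall of the list. RPUSD4, a pseudouridine synthase, had a change of -0.55 ± 0.060. METTL15, a methyltransferase of the small rRNA, rose from 26.1 ± 1.34 to 54.8 ± 2.21 (1.06 ± 0.049). MRM3, a methyltransferase of the large rRNA, rose from 7.84 ± 0.73 to 15.3 ± 1.37 (0.92 ± 0.092).

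Of 16 factors of mitochondrial translation, 5 were higher, 8 lower and 3 not past (median -0.10). The share past the threshold was 81.25%, near the 79.9% of all genes tested, and equal column sums gave 4 higher and 10 lower. TUFM, the elongation factor that brings tRNAs to the ribosome, had 419, 420 and 425 scaled CPM in wild type and 221, 223 and 239 in the knockout, with no overlap (-0.89 ± 0.031). Its exchange factor TSFM, on chromosome 12, rose (0.65 ± 0.039). SLIRP, which stabilises mitochondrial mRNAs, fell (-0.88 ± 0.040), and C12orf65, a ribosome rescue factor on chromosome 12, rose (0.75 ± 0.060). Of 9 genes for copying and transcribing mitochondrial DNA, 1 was higher (MTERF1, on chromosome 7, 0.41 ± 0.053), 6 lower and 2 not past. That is 77.8% past the threshold, and equal column sums gave 1 higher and 7 lower. TWNK, the helicase of mitochondrial DNA replication, fell from 66.7 ± 1.08 to 18.4 ± 0.68 (-1.83 ± 0.044), and TFB2M, a transcription factor of the organelle, had a change of -0.97 ± 0.044.

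The RNAs of mitochondrial DNA, which the ribosome contains or translates, were mixed as well. Of 15, 3 were higher, 5 lower and 7 not past, so 53.3% passed, against 79.9% of all genes tested. Equal column sums gave 3 higher and 9 lower and quantile normalization 1 higher and 7 lower. MT-ATP6 (0.55 ± 0.066) and MT-CO3 (0.32 ± 0.033) had the largest rises, and MT-ND5 (-0.57 ± 0.046) and MT-ND2 (-0.50 ± 0.050) the largest falls. Under quantile normalization MT-CO3 did not pass, and MT-CO1 (0.30 ± 0.037) lost its call at -0.06. The rRNAs MT-RNR1 and MT-RNR2 did not pass: MT-RNR1 had 217, 158 and 135 scaled CPM in wild type and 150, 159 and 149 in the knockout, so that the wild-type libraries alone spanned the knockout. With equal column sums MT-RNR1 passed as lower (-0.27; limma adjusted p = 0.040). The kit selects poly(A) RNA, so rRNA levels depend on how much of each rRNA is retained.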

How the data were processed

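RNA of 6 HepaRG libraries, 3 wild type and 3 functional PXR knockout, was sequenced as paired-end reads from a stranded mRNA kit, per the labels' protocols. Per the submitters' processing notes, FastQC, Trim Galore, Bowtie2, edgeR and limma were used with the hg38 build, and the sample titles name RSEM, which shares ambiguous reads between genes; the versions and annotation were not given in the sources used here. The authors deposited a normalized signal, 16673 rows on a linear scale although the table is named for log2 CPM. Of these, 14 second pseudoautosomal copies were left out. Columns summed to 936409 to 947974 in wild type and 1028470 to 1042826 in the knockout. The largest spacing at which the low values of a library lined up well was taken as 1 read and gave the depth (0.0308 to 0.0824 CPM per read). Shared reads can give fractions of a read, so depths and read numbers are estimates.

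Values were put on a log2(scaled CPM + 0.5) scale, and each gene was fitted by group with limma 3.58.1 (R 4.3.3; trended empirical Bayes, two-sided). Genes above 1 scaled CPM in at least 3 libraries were kept, and p-values were adjusted by Benjamini-Hochberg over all 16219 genes, with a threshold of 0.05. Changes of low genes are understated on this scale. Tested on simulated data of the same depths (15326 genes), the fit recovered 89.7% of 97 changes of 1.5-fold and 99.0% of 97 of 2-fold, with 13 false calls among 196. The simulation gave all genes the same spread, changed few genes and had no shift in scaling between groups. In the real data most genes changed and column sums differed, so these rates do not measure the errors here. Of 16659 identifiers, 16608 matched GENCODE 29 on GRCh38. Promoters were matched by symbol or unique synonym. Tables were handled in Python 3.11.15 with pandas 2.3.3.

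Genes are named by a rule: the 10 largest rises and falls, the 3 highest and 3 lowest levels per kb, genes past no threshold, those on chromosomes with a median beyond 0.3, the stalk, the central protuberance, the 3 homologues of S18, genes whose call depends on a setting and, of each other list, up to 2 rises and 2 falls with some fixed genes. Others were named after their values were seen. The members and lists were chosen with earlier results of these data known. Exon bases were shared with a measured gene on the same strand by 9 of the 78 genes and on the opposite strand by 20, and 34 have annotated pseudogenes. Alternatives were other pseudocounts, filters, scalings, a replicate block, no trend, chromosome medians taken out and each library left out.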

Additional observations from a re-analysis of the deposited data

How the results depend on the processing

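Of the 60 calls, 45 kept their call and direction under all 15 alternatives, and 15 did not in at least one. With columns rescaled to equal sums, 19 genes were higher and 42 lower, and the changes of MRPL14 (-0.021), MRPL18 (-0.071), MRPL2 (-0.013), MRPL30 (-0.098), MRPL4 (-0.049), MRPL41 (-0.057), MRPL46 (-0.018), MRPS12 (-0.11), MRPS35 (-0.048) and MRPS9 (-0.088) turned negative. MRPL16, MRPL37, MRPL58, MRPS15, MRPS18B, MRPS36 and MRPS5 lost their calls there. Under quantile normalization (26 higher, 34 lower), MRPL30 (-0.0066) and MRPS12 (-0.023) turned. With chromosome medians taken out (30 higher, 32 lower), MRPL36 (0.0087), MRPL41 (-0.081), MRPL42 (-0.022), MRPL9 (0.014), MRPS10 (0.035), MRPS12 (-0.020) and MRPS35 (-0.25, limma adjusted p = 4.6e-05) turned, and MRPS17, MRPS31 and MRPS6 lost their calls. The median of all 78 genes, -0.033, was -0.17 with equal sums and -0.063 with quantile normalization. The cause of these turns was not tested. Other pseudocounts and filters left 28 higher and 32 lower, and the fit without trend 28 and 31. Leaving out each library gave 26 to 29 higher and 29 to 32 lower, with a median from -0.037 to -0.011, and MRPL23 (-0.13 to 0.031), MRPL36 (-0.13 to 0.0077), MRPL45 (-0.057 to 0.071), MRPL9 (-0.071 to 0.031) and MRPS10 (-0.038 to 0.021) changed sign; none of these 5 had passed. The call of MRPS18C was lost with some single libraries left out, as were those of MRPS31, MRPS35, MRPS6, MRPL2 and MRPL55. Same-numbered libraries deviated with correlations of -0.020, -0.061 and 0.025, so the numbers do not pair them; with the replicate block, 27 were higher and 32 lower, and only the call of MRPS35 was lost. Wild-type libraries, the shallower ones, limit the precision, most for MRPL22 with an estimated 133 reads in 1 library.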

Other observations

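Many of these genes stand head to head with another gene. Of the 78, 29 (37.2%) have a protein-coding gene annotated on the opposite strand whose start lies within 1000 bases, against 16.9% of the 13453 protein-coding genes tested. For 24 of these genes the nearest partner outside the set that was tested was taken, each gene once. In 15 of the 24 pairs (62.5%) both genes passed the threshold, 10 in the same direction (66.7%) and 5 in opposite ones. Of 1037 such pairs of other tested genes, 66.0% had both genes past, and 66.4% of those moved in the same direction, so the shares were near the background. The changes correlated with r = 0.12 over the 24 pairs and 0.34 over the 1037, as a description.

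MRPL27 starts 6 bases from EME1, a subunit of a DNA endonuclease. EME1 had 20.03, 19.4 and 21.1 scaled CPM in wild type and 5.61, 5.48 and 5.41 in the knockout, a fall (log2 change -1.78 ± 0.075) beside the rise of MRPL27 (0.60 ± 0.037). MRPL13 rose by 0.63 and lies 2 bases from MTBP, which fell (-1.11 ± 0.088), from 13.0, 13.0 and 11.6 to 5.82, 5.37 and 5.42. MRPL49 rose beside FAU (290 bases), which encodes a cytosolic ribosomal protein fused to a ubiquitin-like one and fell (-0.49 ± 0.033). MRPL43 fell together with TWNK (148 bases, -1.83 ± 0.044), and MRPL32 rose together with PSMA2 (23 bases, 0.94 ± 0.029), a proteasome subunit. MRPL32 and PSMA2 lie on chromosome 7, which had a median change of 0.43, and the part of that median in their shared rise was not tested. MRPL13, MRPL49, MRPL43 and MRPL32 each share exon bases with the partner named here on the opposite strand. The strand setting of the counting is not given, so reads may have been shared in these pairs. MRPL57 had a small fall (-0.19 ± 0.050) beside SKA3, a gene of chromosome segregation (43 bases, -1.14 ± 0.097). MRPL46 and MRPS11 form a pair within the set, 34 bases apart: MRPS11 rose (0.31 ± 0.048) and MRPL46 did not pass (0.12 ± 0.052; limma adjusted p = 0.054). The pairs were picked after their values were seen.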
